A study of Mus musculus with 24 samples.

Results

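The 150 probes described here are those that were far brighter in brain than in heart or kidney on a mouse bead array of 25697 probes. For each probe, the gap was taken as the lowest log2 raw intensity over the 8 brain arrays minus the highest over the 16 heart and kidney arrays. A gap of at least 1 was found for 692 probes, and the 150 with the largest gap form the set. One gene symbol was attached to 144 of them, covering 132 different genes, all protein coding, and 6 have no symbol and are given by probe identifier. The members were chosen by these raw intensities, so their excess in brain is a description and carries no test.

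Total RNA of brain, heart and kidney was hybridised from 4 heterozygous Kctd1 L27N mice and 4 wild type mice, each mouse giving 1 array per tissue (24 arrays in all). All 8 mice had the C3HeB/FeJ background and were 18.5 weeks old. The heterozygous mice carry 1 copy of the L27N substitution in every tissue, and the labels name no brain region. KCTD1, a BTB domain protein, is known to bind transcription factors of the AP-2 family and to inhibit their activity, and KCTD1 mutations in humans cause scalp-ear-nipple syndrome. The samples are separate mice within each genotype.

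Brain RNA is a mixture from neurons, which release transmitter from synaptic vesicles and peptides from dense-core granules, and from glia. Oligodendrocytes wrap axons in myelin, and astrocytes clear transmitter from the synapse. Many genes of neurons are kept silent in other tissues by the repressor REST, which binds the RE1 element, and several are induced through the cAMP response element bound by CREB. In bulk tissue, fewer cells of a type and less RNA per cell cannot be told apart.

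Promoter windows from RefSeq (build GRCm38.p6, 250 bases before to 50 bases after a transcription start) were on hand for 99 member genes, 156 windows in all, against 16534 windows of genes on the array. The left part of RE1 (TTCAGCACC, either strand) stood in 3 member windows (1.92%) and in 65 array windows (0.393%). The full cAMP response element (TGACGTCA, which reads the same on both strands) stood in 7 member windows (4.49%) and in 2.36% of array windows. The 3 windows with this part of RE1, those of Syn1, Scg2 and Dner, are shown first, followed by Sst, whose cAMP response element is a textbook example. Capitals mark these 2 motifs, and each line runs 5′ to 3′ on the strand of the gene.
Syn1 (chrX:20920869-20921168, minus strand): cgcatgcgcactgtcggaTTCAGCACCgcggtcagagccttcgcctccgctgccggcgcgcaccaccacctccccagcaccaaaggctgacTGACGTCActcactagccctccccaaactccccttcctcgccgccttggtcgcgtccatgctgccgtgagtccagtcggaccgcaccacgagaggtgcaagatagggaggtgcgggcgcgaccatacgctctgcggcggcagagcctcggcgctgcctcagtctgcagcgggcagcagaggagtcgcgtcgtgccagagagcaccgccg
Scg2 (chr1:79439977-79440276, minus strand): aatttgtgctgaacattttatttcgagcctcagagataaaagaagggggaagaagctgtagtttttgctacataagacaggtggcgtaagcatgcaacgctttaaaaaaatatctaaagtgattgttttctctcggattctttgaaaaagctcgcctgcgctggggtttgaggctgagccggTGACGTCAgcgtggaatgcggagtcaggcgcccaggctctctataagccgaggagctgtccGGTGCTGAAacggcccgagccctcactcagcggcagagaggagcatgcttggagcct
Dner (chr1:84696172-84696471, minus strand): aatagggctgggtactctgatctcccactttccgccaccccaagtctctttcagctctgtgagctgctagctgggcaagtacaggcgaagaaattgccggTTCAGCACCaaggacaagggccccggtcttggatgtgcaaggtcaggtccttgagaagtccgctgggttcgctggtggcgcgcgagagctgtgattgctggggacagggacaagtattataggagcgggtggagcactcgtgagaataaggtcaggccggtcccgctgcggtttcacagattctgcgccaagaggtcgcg
Sst (chr16:23890795-23891094, minus strand): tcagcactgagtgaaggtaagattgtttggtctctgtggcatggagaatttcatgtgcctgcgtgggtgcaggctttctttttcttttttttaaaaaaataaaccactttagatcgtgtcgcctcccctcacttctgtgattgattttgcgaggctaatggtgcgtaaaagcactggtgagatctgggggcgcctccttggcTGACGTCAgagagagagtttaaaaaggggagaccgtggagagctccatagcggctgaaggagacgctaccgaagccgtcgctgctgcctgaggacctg
Syn1 and Scg2 hold both motifs, which do not overlap there. Syn1 encodes a protein that tethers synaptic vesicles, Scg2 a secretory granule protein, Dner a Notch ligand of neurons and Sst the interneuron peptide somatostatin. The GC box (GGGCGG, either strand) stood in 49.4% of member windows and in 49.6% of array windows. TATAAA stood in 7.05% of member windows and in 11.9% of array windows, and CCAAT in 30.8% of member windows and 37.8% of array windows. The right part of RE1 (GGACAGCG) stood in 2.56% of member windows and in 1.72% of array windows, and CANNTG in 71.2% of member windows and 68.3% of array windows. Median GC content was 58.3% in member windows and 57.7% in array windows, with a median of 12 CpG sites in member windows and 15 in array windows. These shares describe letters in the windows and no site was tested.

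In brain, the members had raw intensities of 751 to 9720 over all probes and arrays, with a median of probe medians of 1716. Heart arrays gave 94.7 to 486 for the same probes (median 117) and kidney arrays 89.5 to 551 (median 104). Every member was detected (detection p under 0.05) on all 8 brain arrays. In heart, 33 members were detected on none of 8 arrays, 56 on 1 to 7 and 61 on all 8, and in kidney the counts were 59, 50 and 41. No heart or kidney array detected 28 members, whereas 31 members were detected on all 16. For 133 members the brightest array outside brain was a heart array, and for 17 it was a kidney array.

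Over all members the fold was computed from levels corrected for background and normalized over the 24 arrays, which makes it larger than the ratio of raw intensities, and it is given as at least a value where no array of the other tissue detected the probe. Over heart, the 117 measured folds ran from 16.6 to 404 with a median of 54.4, and the 33 bounds from 31.7 to 249. Over kidney, 91 measured folds ran from 11.6 to 397 with a median of 57.0, and 59 bounds from 29.2 to 373. The measured folds include 56 over heart and 50 over kidney whose probe was detected on only 1 to 7 of the 8 arrays, and these rest partly on levels not above background. Gaps ran from 5.82 for the leading probe to 2.72 for the last, with a median of 3.42. At the end of the list Aak1, Gdap1 and Stau2 had gaps of 2.72, while just outside it Pak3 and probe ILMN_3161601 had 2.71 and Slc24a3 had 2.70.

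The largest gap belonged to Rasgrf1, a neuronal exchange factor for Ras. Its leading probe read 7830, 7852, 7320 and 8136 in heterozygous brain and 8234, 7948, 7973 and 7904 in wild type brain. The same probe read 108 to 130 in heart and 96.4 to 102 in kidney, and heart detected it on 2 of 8 arrays and kidney on 0 of 8. Brain was at least 373-fold above kidney, and the computed 404-fold over heart rests mostly on levels not above background. A second Rasgrf1 probe, detected on no heart or kidney array, was at least 249-fold brighter in brain than in heart and at least 229-fold brighter than in kidney. Cplx1, which encodes complexin, a clamp of vesicle fusion, was at least 326-fold above kidney, with a computed 339-fold over heart, where 3 of 8 arrays detected it. Mbp, the myelin basic protein gene, read 7141, 8398, 6684 and 7590 in heterozygous brain and 9720, 7848, 8459 and 7668 in wild type brain. Its fold was 185 over heart (detected on 8 of 8 arrays) and 397 over kidney (4 of 8). The next members by gap were Zcchc18, Slc1a3 (the astrocyte glutamate transporter, 172-fold over heart and 198-fold over kidney), Eno2 (the neuronal enolase, 148-fold over heart and 263-fold over kidney, where 6 of 8 arrays detected it) and Syp (synaptophysin of the vesicle membrane, 174-fold over heart and 126-fold over kidney). Rtn1, a reticulon of the endoplasmic reticulum, followed with 116-fold over heart and a computed 320-fold over kidney, where 1 of 8 arrays detected it, and Arpp21, a cAMP-regulated phosphoprotein, with 191-fold over heart (6 of 8 arrays) and at least 183-fold over kidney. The genotypes overlapped in brain for each of these 10 probes.

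Some members had a clear level outside brain as well. Among those detected on all 16 other arrays, the 5 closest to their own brain level were Rnf208, Mllt11, probe ILMN_3136638, Tubb2b (a tubulin of developing neurons) and Kifc2 (a kinesin). In kidney their brain excess was 11.6-fold for Rnf208, 13.7-fold for Mllt11, 15.0-fold for ILMN_3136638, 15.9-fold for Tubb2b and 16.5-fold for Kifc2. Mllt11 had a median raw intensity of 3968 in brain, beside 276 in heart and 338 in kidney. Dnajc6, which encodes auxilin, the protein that uncoats clathrin vesicles, was chosen after its values were seen because it had the brightest kidney median, 467, with a 12.0-fold excess of brain over kidney and 207-fold over heart. Syt11, a synaptotagmin, had the brightest heart median, 386, and was 35.3-fold above heart and 57.9-fold above kidney. Camk2b, the beta subunit of calmodulin kinase II, was detected on all 8 heart arrays (20.2-fold) and on none in kidney (at least 109-fold).

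Gene lists for brain cell types and functions show which cells the members represent, with the limit that the same intensities chose them. Of 21 lists, 9 held at least 1 member gene, and 44 of the 150 probes belonged to any list. The synaptic vesicle and release list gave 9 member genes of 22 with a probe on the array, namely Syp, Sv2a, Stx1a, Cplx1, Syngr3, Nsf, Napb, Syt4 and Syt11. The pan-neuronal list gave 7 of 20 (Rbfox3, Syt1, Syn1, Stmn2, Eno2, Thy1 and Ncdn), and the glutamate synapse list 5 of 21 (Camk2a, Camk2b, Gria2, Slc17a6 and Nrgn). From the list of GABA and glycine synapses and interneurons 4 of 19 were members: Gad1, which makes GABA, Slc32a1, which loads it into vesicles, Sst and Calb2. Neuropeptides and secretory granules gave 5 of 23 (Cck, Scg2, Scg5, Chgb and Vgf).

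Among glial lists, oligodendrocytes and myelin gave 5 of 17 (Mbp, Mag, Cldn11, Olig1 and Bcas1) and astrocytes 3 of 17 (Slc1a3, Aldoc and Ttyh1). Cbln1 stood for cerebellum and Pde1b for striatum. No member belonged to the lists for ion channels, monoamine and acetylcholine neurons, microglia, brain vessels, or ependyma and choroid plexus. The lists for cortex and hippocampus, immediate early genes, pituitary, heart, kidney, blood and the KCTD family also held none. The ion channel list is not complete, since the member Kcnc4, a potassium channel subunit, is not on it. Of its 17 genes with a probe, 4 had a gap of at least 1. The heart list separated the labelled tissues, with summed normalized intensities of 120939 to 127471 in heterozygous heart and 123418 to 126869 in wild type heart, beside 308 to 340 in heterozygous brain and 313 to 328 in wild type brain.

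In the genotype comparison in brain, no member passed the test. Levels were normalized within the tissue and are given on the log2 scale, differences are heterozygous minus wild type, and limma's moderated test was adjusted over all probes tested in that tissue. Of 150 members, 0 passed at an adjusted p of 0.05, beside 0% of 12608 brain probes. At an unadjusted p under 0.05 there were 3 members (2.00%), beside 7.1% of all brain probes. Which share was larger depended on the processing. Without background correction 19 members had such a p (12.7%, beside 7.46%), and without the detection filter 13 (8.67%, beside 6.19%). With a common median in place of quantiles 0 did, beside 6.29%. Differences among members ran from -0.18 to 0.25 with a median of 0.02, beside -0.00098 over all probes. Above 0 lay 94 members (62.7%) and below 0 lay 56, beside 49.5% above 0 over all probes. With a common median in place of quantile normalization the members' median turned to -0.02. The 95% intervals of all 150 lay within -0.38 and 0.50, so that a larger shift was outside every member's interval.

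The brain member with the smallest p was Sult4a1, a sulfotransferase of neurons. Its log2 levels were 11.81, 11.69, 11.72 and 11.67 in heterozygous brain and 11.55, 11.50, 11.41 and 11.58 in wild type brain. All 4 heterozygous mice lay above all 4 wild type mice. The difference was 0.22 ± 0.08 (SE, n = 4 each; limma adjusted p = 0.598). Nrn1, which encodes neuritin, a factor of neurite growth, had 10.89, 11.02, 10.89 and 10.84 in heterozygous brain and 10.78, 10.65, 10.63 and 10.80 in wild type brain. Its difference was 0.19 ± 0.08 (SE, n = 4 each; limma adjusted p = 0.671), again without overlap. Asphd2 (0.17, adjusted p by limma 0.704) and Camk2b (0.17, 0.716) likewise did not overlap and did not pass. Mmd2 had the largest difference of any member, 0.25 (limma adjusted p = 0.700), with overlap. In all, 7 members (4.67%) had groups without overlap, each higher in heterozygous brain, beside 3.93% of all brain probes in either direction. Rab6b, Aatk and 1 probe of Ncdn made up the rest.

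By cell type, members from the 5 neuronal lists named above with members lay mostly above 0. Those from glial lists lay below it, and none passed the test. Of 34 member probes in the neuronal lists, 29 lay above 0 with a median difference of 0.05, and with a common median in place of quantiles 22 did, with a median of 0.03. Over all brain probes of these lists, 15 of 25 pan-neuronal probes lay above 0 (median 0.01), 16 of 28 of synaptic vesicles and release (0.02), 16 of 25 of the glutamate synapse (0.05), 9 of 18 of GABA and glycine synapses and interneurons (-0.01) and 17 of 22 of neuropeptides and granules (0.05). The lists for ion channels and for monoamine and acetylcholine neurons, which held no member, did not share this direction. In brain 7 of 20 ion channel probes lay above 0 (median -0.04) and 5 of 11 monoamine and acetylcholine probes (-0.05). All 5 myelin members lay below 0 (median -0.09) and so did all 3 astrocyte members (median -0.12, and -0.07 without heterozygous mouse 4). Over the whole astrocyte list 8 of 20 brain probes lay above 0, with a median of -0.02. Averaged over the 3 astrocyte members, log2 levels were 11.30, 11.33, 11.25 and 11.24 in heterozygous brain and 11.39, 11.35, 11.45 and 11.35 in wild type brain, without overlap. The whole astrocyte list did overlap, with summed intensities of 15792 to 16300 in heterozygous brain and 16124 to 16839 in wild type brain. Of its 20 probes, 0 had groups without overlap, beside 3.93% of all brain probes. The mean over the 5 myelin members was 11.53, 11.60, 11.36 and 11.45 in heterozygous brain and 11.55, 11.64, 11.57 and 11.53 in wild type brain, and these overlapped. Neuronal means were 10.81, 10.82, 10.85 and 10.89 in heterozygous brain and 10.79, 10.78, 10.77 and 10.82 in wild type brain, also with overlap. Ttyh1, a membrane protein of the tweety family, had the lowest difference of any member, -0.18 (limma adjusted p = 0.737).

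These medians were recomputed with the array number in the fit. Each column of the deposited table carries a number, and the labels do not say what it marks. In brain heterozygous mice had numbers 2, 6, 7 and 8 and wild type mice 1, 3, 4 and 5. Number and genotype were thus partly confounded, and the mice followed the same sequence in heart and kidney. With that number as a covariate, 23 of the 34 neuronal probes lay above 0 (median 0.03), 4 of 5 myelin probes below 0 (median -0.07) and 3 of 3 astrocyte probes below 0 (median -0.06). Myelin members were also not the whole of that list. Over all 21 brain probes of the myelin list, 4 lay above 0 (beside 49.5% of all brain probes) and the median was -0.09. An unadjusted p under 0.05 was found for 6 of them, beside 7.1% of all brain probes, and 0 passed the adjusted test. An Mbp probe outside the set (gap 2.27) had a difference of -0.71 with an unadjusted p of 3.0e-05 (limma adjusted p = 0.379). The Mbp member probe had a difference of -0.12. A further Mbp probe outside the set (gap 0.83), detected on all 8 brain arrays, ran the other way, at 0.12 (limma unadjusted p = 0.235). The Mbp probes thus did not all point the same way. 

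Spread between mice in brain was small for the members. The SD over the 8 brain arrays had a median of 0.09 over members and 0.15 over all 12608 probes, and 133 of 150 members lay below the median of all probes. Bright probes in general varied as little. The 793 other brain probes at least as bright as the dimmest member (raw median 855) had a median SD of 0.09 and a median size of difference of 0.05, beside 0.05 for the members. The rule takes the lowest brain array, so it also favours probes with little spread.

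The steadiest members were Kcnc4, a potassium channel subunit (SD 0.04), Vsnl1, the calcium sensor visinin-like 1 (0.04), and with 0.05 each Rtn1 (its leading probe), Neurl1a and Scg5. Vsnl1 had log2 levels of 12.01, 12.08, 12.02 and 11.97 in heterozygous brain and 12.00, 11.95, 11.98 and 12.03 in wild type brain. Gad1 varied most (SD 0.22), at 10.08, 10.09, 10.22 and 10.14 in heterozygous brain and 10.51, 9.74, 9.95 and 10.06 in wild type brain. Its SD was 0.06 among heterozygous mice and 0.33 among wild type mice. Mmd2 (0.22), the second Rtn1 probe (0.21), ILMN_1240381 (0.21) and Dner (0.19) came next.

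Array number was also tested beside genotype in brain. No member passed, 0 of 150, beside 0.0317% of all brain probes. An unadjusted p under 0.05 was found for 8 members (5.33%), beside 11% of all brain probes. Here too the larger share depended on the processing. Without background correction 28 members had such a p (18.7%, beside 11.5%), and without the detection filter 18 (12%, beside 8.78%). Without heterozygous 1 there were 10 (6.67%, beside 7.61%). Dner had the leading slope, -0.09 per number (limma adjusted p = 0.199), followed by Rgs7bp (0.07, 0.280), Mmd2 (-0.07, 0.295), the second Rtn1 probe (-0.07, 0.314) and Vgf (0.06, 0.336). Mmd2, Rtn1 and Dner were thus among both the most variable members and those most tied to array number.

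Where a gene had several member probes, they did not always vary together. There were 10 such genes with 22 probes. They were not all alike, as the correlation r over the 8 brain arrays (n = 8, description only) shows. For Sv2a, a vesicle glycoprotein, r was 0.88 between its probes, for Syn1 0.69, for Olfm1 0.60 and for Bex2 0.58. For Rasgrf1 it was -0.61 and for Arpp21 -0.22. All probe pairs share arrays and normalization. Of the member genes, 39 also had probes outside the set, 63 in all, of which 18 were detected on no brain array, so membership is a property of the probe and not of every probe of a gene.

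In heart, 85 members could be tested because at least 4 of 8 arrays detected them. None passed, 0 of 85, beside 0% of 12004 heart probes, with 2 members at an unadjusted p under 0.05 (2.35%, beside 4.75%). Groups did not overlap for 3 members (3.53%, beside 2.58%), all lower in heterozygous heart. Syp had log2 levels of 5.06, 5.27, 5.15 and 5.33 in heterozygous heart and 5.52, 5.51, 5.47 and 5.35 in wild type heart, with a difference of -0.26 ± 0.09 (SE, n = 4 each; limma adjusted p = 0.927). Gprasp1, a sorting protein for receptors, had a difference of -0.16 with the same adjusted p of 0.927 (limma), and Rab15, a Rab GTPase, one of -0.15. Above 0 lay 41 members and below 0 lay 44, beside 49.2% above 0 over all heart probes. The median difference was -0.0027 over the 85 members and -0.0024 over all heart probes, and with a common median in place of quantiles it was -0.10.

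In kidney, 3 of the 63 members tested passed, beside 0.273% of 10976 kidney probes. Scg5 and Rab15 rose (beside 0.146% of kidney probes called higher) and Rasgrp1 fell (beside 0.128% called lower). All 3 were dim in kidney, with raw intensities of 103 to 194, so these are differences near the detection limit of the array. With any 1 mouse left out, 1 to 2 members passed, Scg5 each time. The other 87 members were detected on fewer than 4 kidney arrays. Cck and Sphkap entered the 63 through 1 genotype alone, so counts over the 63 describe the probes kept and support nothing.

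Scg5, which encodes the chaperone 7B2 of the prohormone convertase PC2, had raw intensities of 167, 155, 191 and 194 in heterozygous kidney and 143, 135, 139 and 128 in wild type kidney. Normalized log2 levels were 6.46, 6.29, 6.48 and 6.61 in heterozygous kidney and 5.84, 5.80, 5.74 and 5.56 in wild type kidney. Every heterozygous mouse lay above every wild type mouse. The difference was 0.73 ± 0.11 (SE, n = 4 each; limma adjusted p = 0.00807), a 1.65-fold rise. It passed under each of 20 alternative settings, with limma adjusted p of 0.00358 to 0.0389, and the difference was 0.32 without background correction. In brain the same probe differed by 0.06 (limma adjusted p = 0.922).

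Rab15, a Rab GTPase of endosomal recycling, had log2 levels of 6.59, 6.58, 6.43 and 6.54 in heterozygous kidney and 5.76, 6.15, 6.02 and 5.92 in wild type kidney. The groups did not overlap, and the difference was 0.57 ± 0.11 (SE, n = 4 each; limma adjusted p = 0.0343), a 1.49-fold rise. Its difference was -0.02 in brain and -0.15 in heart, neither past the test. The rise in kidney was 0.57 with array number as a covariate, where the limma adjusted p was 0.129, and 0.27 without background correction, where it was 0.0529.

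Rasgrp1, an exchange factor for Ras that responds to diacylglycerol, had log2 levels of 5.39, 4.39, 4.61 and 4.75 in heterozygous kidney and 6.02, 6.33, 5.97 and 5.55 in wild type kidney. The highest heterozygous mouse lay just below the lowest wild type mouse, and the probe was detected on 3 of 4 heterozygous arrays and 4 of 4 wild type arrays. It fell by 1.18 on the log2 scale (SE 0.20, n = 4 each; limma adjusted p = 0.0183), 2.27-fold lower in heterozygous kidney. The difference was -0.88 with array number as a covariate (limma adjusted p = 0.103) and -0.39 without background correction (limma adjusted p = 0.128). Of the other Rasgrp1 probes, 1 had a gap of 0.49 and 1 was detected on no brain array.

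Cck and Rab6b did not pass in kidney alone. Cck, the cholecystokinin gene, had log2 levels of 4.33, 4.45, 4.23 and 4.26 in heterozygous kidney and 4.85, 5.29, 4.80 and 4.59 in wild type kidney. It was detected on 0 of 4 heterozygous arrays and 4 of 4 wild type arrays, so that wild type kidney was at least 1.31-fold higher, with a fitted difference of -0.57 (limma adjusted p = 0.158). Rab6b, a Rab GTPase of retrograde transport in neurons, had 4.58, 4.63, 4.42 and 4.61 in heterozygous kidney and 5.05, 5.10, 4.76 and 5.25 in wild type kidney, a difference of -0.48 (limma adjusted p = 0.163). Both genes had groups without overlap.

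Over all 63 kidney members, 9 (14.3%) had an unadjusted p under 0.05, beside 8.52% of kidney probes, and 10 (15.9%) had groups without overlap, beside 4.58%. Of these 10, the 6 higher in heterozygous kidney were Scg5, Rab15, Olfm1, Pde1b, Rnf208 and Sphkap, and the 4 lower were Rasgrp1, Rab6b, Cck and Stx1a. The median difference was 0.04 over members and 0.00 over all kidney probes, with 33 members above 0 (beside 50.2% of all kidney probes) and 30 below, and with array number as a covariate the members' median was -0.02.

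Levels of neuronal and endocrine lists in kidney were set beside these calls. In the list of neuropeptides and secretory granules, 4 probes were tested in kidney, of which Scg5 passed. The summed intensity of that list was 623 to 628 in heterozygous kidney and 590 to 611 in wild type kidney. That sum includes Scg5 itself (mean log2 level 6.46 in heterozygous and 5.73 in wild type kidney), so it is not separate from the Scg5 call. Cck, also in the sum, ran the other way (4.32 and 4.89). Chga, a general marker of endocrine granules, Th and Dbh, markers of catecholamine cells, were detected on 0 of 8 kidney arrays by each of their probes. Other genes of their lists were detected on at least 4 kidney arrays. These were 4 of 23 in the neuropeptide and granule list and 2 of 14 in the monoamine and acetylcholine list. In the list of GABA and glycine synapses and interneurons, 4 probes were tested and 1 passed, Pvalb, a calcium buffer of interneurons that the distal convoluted tubule of the kidney also expresses. Pvalb, whose gap of 1.54 left it outside the set, had a kidney difference of -1.14 (limma adjusted p = 5.2e-05) and a brain difference of -0.04. Pan-neuronal intensity summed to 659 to 688 in heterozygous kidney and 641 to 706 in wild type kidney, and the blood list to 6198 to 8327 in heterozygous kidney and 7971 to 10626 in wild type kidney. The part of these lists in the kidney differences was not tested.

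Whether the genotype effect differed between tissues was tested with an interaction over all 24 arrays, 1 F test over the 3 tissues for each probe. Probes detected on at least 4 arrays of any tissue were kept, so brain detection alone let in all 150 members. Of these, 87 were detected on fewer than 4 kidney arrays and 65 on fewer than 4 heart arrays. Of 150 members, 5 passed, beside 0.317% of 14835 probes, and 10 had an unadjusted p under 0.05 (6.67%, beside 6.5%). These counts describe the probes kept and support nothing. For Scg5 the effect in kidney minus that in brain was 0.62 ± 0.12 (SE; limma adjusted p = 0.00271), and for Rasgrp1 -1.44 ± 0.24 (SE; limma adjusted p = 0.00282). Cck had a limma adjusted p of 0.0103, and its fitted value of -0.87 is no measured size, since 0 of 4 heterozygous kidney arrays detected it. Rab15 followed with 0.59 ± 0.13 (SE; limma adjusted p = 0.0108) and Rab6b with -0.76 ± 0.14 (SE; limma adjusted p = 0.0118). The adjusted p is that of the F test and not of kidney against brain alone. The heart effect minus the brain effect was smaller in size for Rab15 (-0.11) and Rab6b (-0.08). Heart detected Scg5 and Rasgrp1 on 1 of 8 arrays and Cck on 0 of 8, so no heart effect could be measured for these genes. Rab15 was detected on 8 of 8 heart arrays and Rab6b on 7 of 8. With array number as a covariate 0 of the 5 passed, with adjusted p by limma of 0.0746 to 0.225, and the kidney minus brain values were 0.63 for Scg5 and -1.06 for Rasgrp1. With a mouse left out, 2 to 5 members passed.

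The AP-2 site (GCCNNNGGC, which reads the same on both strands) was searched in the promoter windows of these 5 genes because KCTD1 is known to bind AP-2. It stood in 16.7% of all 156 member windows and in 20.9% of array windows. Of the 5 genes, Rab15 held it in 2 of 4 windows and Rab6b in 1 of 1, and these 3 windows follow with the site in capitals, 5′ to 3′ on the gene's strand (RefSeq, GRCm38.p6).
Rab15 first window (chr12:76822475-76822774, minus strand): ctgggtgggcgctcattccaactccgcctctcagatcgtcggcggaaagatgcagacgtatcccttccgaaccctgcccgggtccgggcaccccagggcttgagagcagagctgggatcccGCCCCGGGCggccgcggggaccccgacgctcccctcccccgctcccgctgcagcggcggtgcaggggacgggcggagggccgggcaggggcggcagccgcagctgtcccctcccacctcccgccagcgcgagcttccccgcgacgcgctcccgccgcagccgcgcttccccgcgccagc
Rab15 second window (chr12:76819047-76819346, minus strand): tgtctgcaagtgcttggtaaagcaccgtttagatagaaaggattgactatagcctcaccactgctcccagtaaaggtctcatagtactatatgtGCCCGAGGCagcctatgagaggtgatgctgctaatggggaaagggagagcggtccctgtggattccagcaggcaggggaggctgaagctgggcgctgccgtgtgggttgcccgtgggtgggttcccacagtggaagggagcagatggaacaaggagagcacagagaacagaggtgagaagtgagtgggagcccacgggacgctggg
Rab6b (chr9:103111824-103112123, plus strand): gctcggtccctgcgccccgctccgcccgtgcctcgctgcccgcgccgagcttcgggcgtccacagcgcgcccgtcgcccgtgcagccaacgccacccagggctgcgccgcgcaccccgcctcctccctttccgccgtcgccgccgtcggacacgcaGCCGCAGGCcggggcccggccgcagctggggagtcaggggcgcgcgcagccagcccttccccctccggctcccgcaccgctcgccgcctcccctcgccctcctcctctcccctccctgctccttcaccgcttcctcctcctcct
The single windows of Scg5, Rasgrp1 and Cck held 0 matches, which says only that these letters are not in those windows.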

How the data were processed

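Biotinylated cRNA from 24 tissue samples was hybridised to Illumina bead arrays. The authors deposited a table of raw mean bead intensity per probe with a detection p-value, exported from GenomeStudio 2011.1 per the submitters' processing notes; a second deposited table holds intensity values of the same arrays after background subtraction and scaling, and served as an alternative. Neither is a read count, and depth does not apply: the number of arrays limits precision.

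Gaps used log2 raw intensity. For tests, limma 3.58.1 in R 4.3.3 applied neqc (background from detection p-values, quantile normalization, offset 16) within each tissue, kept probes with detection p under 0.05 on at least 4 of 8 arrays, fitted genotype and adjusted p by Benjamini-Hochberg over all probes kept. The interaction and the folds between tissues used neqc over 24 arrays, with an F test over the 3 tissues. For the interaction, probes detected on at least 4 of 8 arrays of any tissue were kept. Each mouse gave all 3 tissues, so the labels' mouse identifiers pair arrays across tissues, and mouse as a random block changed no member's call. Probe names came from the platform annotation, updated by gene identifier through RefSeq, with 144 of 150 members matched. The genotype fits were tested on simulated data with independent normal values for each probe. These held no array number trend and no detection limit, so the test does not bear on those.

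Named members are the 10 with the largest gap, 3 on each side of the end of the list, those passing a test, the leading ones without overlap, the 5 most and least variable, the 5 closest to brain level elsewhere, the 5 most tied to array number, genes with several probes and list members. The members and lists were chosen with earlier results of these data known. Alternatives covered background, scaling, filter, array number, blocks and leaving out each mouse.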

Additional observations from a re-analysis of the deposited data

Results flagged for a closer look

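By limma's interaction F test over the 3 tissues, 5 members passed (adjusted p of 0.00271 to 0.0118), beside 0.317% of 14835 probes. With array number as a covariate 0 of them did. Brain detection alone let every member into this test, so the count supports nothing. No heart effect could be measured for Scg5, Rasgrp1 and Cck. The effect in kidney minus that in brain was 0.62 for Scg5, -1.44 for Rasgrp1, 0.59 for Rab15 and -0.76 for Rab6b (log2). For Cck the fitted value was -0.87, which is no measured size, because 0 of 4 heterozygous kidney arrays detected the probe and wild type kidney was at least 1.31-fold higher. In 36 groups of 4 arrays from the named members, Dixon's test for a single far value at the 95% level marked 0 single mice.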

How the results depend on the processing

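The count of members called was 0 in brain and heart under all 20 alternatives each. In kidney it was 1 without background correction, with normalization over 24 arrays, without the detection filter and with array number as a covariate, and 1 to 2 with a mouse left out. It was 1 without heterozygous 2, 3 or 4 and without wild type 1 or 3. Scg5 passed in 20 of 20 alternatives, Rasgrp1 in 8 of 19 and Rab15 in 7 of 20. The interaction count was 3 without background correction, 0 with array number as a covariate and 2 to 5 with a mouse left out (2 without heterozygous 4, 3 without heterozygous 3). Array number called 1 brain member, Dner, without background correction. The cause of these shifts was not tested. Same-numbered heterozygous and wild type mice are different mice. Their deviations correlated by 0.01 to 0.09 in brain, -0.04 to 0.34 in heart and 0.01 to 0.29 in kidney. These were not over 0.1 for every pair, so the replicate numbers were not taken as pairs. With the replicate block 4 kidney members passed, the fourth being Cck (limma adjusted p = 0.0478). Cck entered the kidney test through wild type arrays alone, so that call supports nothing. The rule shared 126 of 150 members under neqc, 142 after quantile normalization of raw values, 143 with tissue medians and 147 to 149 with a mouse left out. Signs did change among list members: in brain Slc1a3 was at 0.02 without wild type 2 (-0.02 with all mice), and 1 of 5 myelin members lay above 0 with array number as a covariate and without heterozygous 3. Kidney and heart levels of most members lie near background, which limits what can be detected there.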
